A study of Rattus norvegicus with 2 samples.

Results

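The 10 genes described here encode proteins of the junctions through which cells couple, seal and adhere: the connexins Gja1, Gjb2, Gjb6 and Gjc1, the claudins Cldn11 and Cldn5, the tight junction proteins Ocln and Tjp1, and the cadherins Cdh1 and Cdh11. They were chosen by name, by the gene symbol in the deposited matrices, and are 10 of the 25399 genes listed there. At least 20 unique molecular identifiers (UMIs, each standing for a captured RNA molecule) were counted over all cells for 9 of them, and Cldn5 had 6.

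Connexins assemble into gap junction channels that join the cytoplasm of neighbouring cells. Claudins and occludin seal the gap between cells, Tjp1 (ZO-1) ties these strands to the actin skeleton, and cadherins hold cells together. In the coverings of the nerve, arachnoid barrier cells are known for Cldn11 and Cdh1 (E-cadherin), fibroblasts of the inner leptomeninges for Gjb2 (connexin 26), and mesenchymal cells in general for Cdh11. Astrocytes couple mainly through Gja1 (connexin 43) and, when mature, Gjb6 (connexin 30), oligodendrocytes use Cldn11 in myelin, and Cldn5 marks the endothelium of the blood-brain barrier.

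Cells from the optic nerve of Sprague Dawley rats as wild type (WT) and of Nuc1 rats, whose mutation is a spontaneous insertion in Cryba1, the gene of βA3/A1-crystallin, were profiled by droplet 3′ RNA sequencing with 1 library per genotype, labelled as 7 days after birth. The material is described both as digested nerve and as a mixed primary culture of glia, and the number of animals behind a library was not given in the sources used here. No Cryba1 UMI was found in either library, so the mutated gene does not check the labels. Filtering left 1963 cells of WT (median depth 14050 UMIs) and 1782 of Nuc1 (16577.5 UMIs), and the 2 libraries shared 2 cell barcodes. RNA of the Y-linked gene Eif2s3y was at 3 UMIs in WT and 901 in Nuc1, so the sex of the animals cannot be told apart from the genotype.

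With 1 library per genotype no test across samples exists. Levels are in CPM (UMIs per 1000000 UMIs, both summed over the cells of a cluster), and every interval is an exact 95% interval (Poisson for a level, conditional for a ratio, binomial for a share of cells) that covers counting error only. A gene was counted as higher or lower in Nuc1 when its CPM differed at least 2-fold and it had at least 20 UMIs in that cluster over both libraries. Levels are compared between cells for 1 gene at a time, since 3′ counts were not scaled by length.

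The cells fell into 10 clusters, made without the junction genes. Clusters 0, 1, 2, 4 and 5 are called collagen-rich, since the summed level of Col1a1, Col3a1, Dcn and Lum was 8919 to 12479 CPM in their WT cells and 5384 to 9067 CPM in their Nuc1 cells, against at most 2912 CPM in any other cluster. The sum was lower in Nuc1 in each of these 5 clusters. Cluster 0 was led by Igfbp5 and Ccn3, cluster 1 by Actg2 and Penk, cluster 2 by Cldn11 itself, Ptgds, Tgm2 and Thbd, cluster 4 by Inmt, Cyp26b1 and Gjb2, and cluster 5 by the division genes Top2a and Mki67. The libraries drew on them unequally: 54 cells of WT and 367 of Nuc1 lay in cluster 4, and 602 and 229 in cluster 1. Beside them stood an astrocyte-like cluster 3 (108 WT and 367 Nuc1 cells), a motile-cilia-like cluster 6 (14 and 92), an oligodendrocyte-lineage-like cluster 7 (52 and 10), an unnamed cluster 8 led by Gldn and Ttr (22 and 26) and a macrophage-like cluster 9 (22 and 22).

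No cluster could be named arachnoid. Of 7 arachnoid barrier markers beside the members, only Ptgds was among the leading genes of a cluster (cluster 2, 20.2 CPM in WT and 262 CPM in Nuc1), while Dpp4, Slc47a1, Slc6a13 and Abcg2 stayed at or below 7.73 CPM in every collagen-rich cluster of either library. All 7 markers together summed to 39.0 CPM in WT and 275 CPM in Nuc1 in cluster 2. In the motile-cilia-like cluster 6 they summed to 283 CPM in WT and 133 CPM in Nuc1. The 7 include Krt18, a keratin that is also in the epithelial list, so this sum need not come from barrier genes alone. The 9 leptomeningeal genes listed summed to 1172 CPM in cluster 4, 1159 CPM in cluster 0 and 1089 CPM in cluster 2 in WT, and to 1175, 701 and 755 CPM in Nuc1, so the list as a whole did not set cluster 4 apart in WT. A dura list of 4 genes, led by Mgp, was also highest in cluster 4 in WT (7751 CPM, against 5877 CPM in cluster 0) and in cluster 0 in Nuc1 (5456 CPM, against 5146 CPM in cluster 4). Among single genes, the retinoic acid enzyme Aldh1a2 was at 134 CPM in WT and 173 CPM in Nuc1 in cluster 4 against 2.38 to 19.4 CPM in the other collagen-rich clusters. The transcription factor Tbx18 was also highest there (238 and 308 CPM), but Foxd1 was highest in cluster 0 in WT, at 413 CPM, and was at 85.9 CPM in Nuc1.

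Gjb2 and Gjb6 lie side by side on chromosome 15 in the RefSeq annotation of rat assembly GRCr8, with no other coding gene between them. The 100 bases before their start sites are shown because both genes were highest in the same cluster, and those of Cldn11 and Gja1 because these were the barrier claudin and the connexin with most UMIs. RefSeq promoter windows were at hand for 7 of the 10 genes and not for Gjc1, Cdh1 and Cdh11. All 4 are written 5′ to 3′ on the strand of the gene. Capitals mark the longest run of bases that the Gjb2 and Gjb6 windows share, the GC box core in Cldn11 and the AP-1 site in Gja1.
Gjb2, chr15:35381954-35382053, minus strand: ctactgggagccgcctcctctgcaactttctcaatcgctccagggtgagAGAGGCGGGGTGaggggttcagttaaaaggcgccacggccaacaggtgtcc
Gjb6, chr15:35410139-35410238, minus strand: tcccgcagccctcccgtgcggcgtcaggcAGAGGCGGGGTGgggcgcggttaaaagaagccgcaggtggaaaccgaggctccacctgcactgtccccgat
Cldn11, chr2:114149540-114149639, minus strand: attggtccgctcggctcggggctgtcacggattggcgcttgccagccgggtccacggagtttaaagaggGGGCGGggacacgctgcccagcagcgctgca
Gja1, chr20:36302464-36302563, plus strand: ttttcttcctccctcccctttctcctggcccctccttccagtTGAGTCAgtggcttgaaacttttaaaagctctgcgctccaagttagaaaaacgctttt

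The shared run, AGAGGCGGGGTG, is 12 bases long and begins 51 bases before the Gjb2 start and 71 bases before the Gjb6 start. On either strand it occurred in 2 of 33465 promoter windows of this length (0.00598%), which are these 2. It was picked after the sequences were seen. Among 27 pairs of member windows the next longest shared run was 10 bases and the median 7 bases. The GC box core, GGGCGG on either strand, occurred in 21.6% of all windows and the AP-1 site, TGANTCA, in 2.47%. The table holds a second start for Gjb6, whose window lacks the run.

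Gjb2 marked cluster 4 in both libraries. Its level there was 530 CPM in WT (95% interval 478 to 587, 376 UMIs) and 815 CPM in Nuc1 (792 to 839, 4642 UMIs), which was 20.7-fold and 13.9-fold the mean of the other clusters. Cluster 2 came next, with 146 CPM in WT and 237 CPM in Nuc1. In the remaining collagen-rich clusters it was at 13.5 to 38.2 CPM in WT and 53.6 to 108 CPM in Nuc1. The intervals of clusters 1 and 0 overlapped in WT, and all neighbours from cluster 4 down to cluster 6 in the order were apart in Nuc1.

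Gjb6, the other beta connexin, was likewise highest in cluster 4 and next in cluster 2, at low counts. In cluster 4 it was at 21.2 CPM in WT (11.8 to 34.9, 15 UMIs) and 38.1 CPM in Nuc1 (33.2 to 43.5, 217 UMIs), and in cluster 2 at 4.08 CPM and 14.9 CPM. It was counted in 12.3% of the Nuc1 cells of cluster 4 (9.11% to 16.1%, 45 of 366 cells) when each cell was thinned to 5000 UMIs, against 79% with Gjb2 (74.4% to 83%). Within those Nuc1 cells, Gjb6 was found in 13.5% of the 289 cells with Gjb2 and in 7.79% of the 77 cells without it. Over the 20 cluster profiles (10 clusters in 2 libraries) the log2 levels of the 2 genes had a Pearson correlation of 0.90, which is given as a description, since profiles of a library share its depth and its free RNA.

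Gjb2 was higher in Nuc1 in every collagen-rich cluster. As log2 of Nuc1 over WT, the ratio was 1.75 in cluster 0 (1.54 to 1.96) and 1.98 in cluster 5 (1.51 to 2.48), which count as at least 2-fold, and 0.97, 0.70 and 0.62 in clusters 1, 2 and 4, which do not. The share of cells with a Gjb2 UMI, thinned to 5000 UMIs, moved the same way: in cluster 0 it was 8.48% in WT (6.47% to 10.9%, 14.9% without thinning) and 27.4% in Nuc1 (23% to 32.2%, 47% without thinning). No Gjb2 UMI was left in the 49 WT cells of the oligodendrocyte lineage at this depth, which allows a share of up to 7.25%. At most 8 cells of a cluster fell short of 5000 UMIs and were left out, apart from 19 of 22 macrophage-like Nuc1 cells.

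Cluster 4 made up far more of the Nuc1 library, and its leading gene gives a scale for how much of its RNA was counted in other cells. Inmt, a methyltransferase, was at 1020 CPM in the Nuc1 cells of cluster 4 and at 18.3 CPM in those of cluster 0, which is 1.79% of its level. The same share of cluster 4's Gjb2 comes to 14.6 CPM, below the 108 CPM measured. In cluster 2 it comes to 20.8 CPM of 237 CPM, in cluster 1 to 6.44 CPM of 74.6 CPM and in cluster 5 to 19.7 CPM of 53.6 CPM. In WT, with 75 Inmt UMIs in cluster 4, it comes to 2.05 CPM of 146 CPM in cluster 2 and to 12.8 CPM of 13.5 CPM in cluster 5. With the 9 non-junction leading genes of cluster 4 summed instead, the amounts were larger. They came to 57.5 CPM in cluster 0, 74.8 CPM in cluster 1, 66.4 CPM in cluster 2 and 76.5 CPM in cluster 5 of Nuc1, and in WT to 66.1 CPM in cluster 0, above the 32.1 CPM measured. The Nuc1 levels of clusters 0 and 2 were above either amount. Both amounts take all RNA of the leading genes outside cluster 4 as cluster 4 RNA, which was not tested.

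Pooled over the collagen-rich clusters, Gjb2 was at 63.1 CPM in WT and 294 CPM in Nuc1, a log2 ratio of 2.22 (2.14 to 2.29), and Gjb6 had a ratio of 2.95 (2.53 to 3.39). Those pooled values carry the shift in makeup, since cluster 4 gave 2.43% of the collagen-rich UMIs in WT and 25.1% in Nuc1. Of all Gjb2 UMIs, 20.4% came from cluster 4 in WT and 67.9% in Nuc1. When the clusters were weighted alike in both libraries, an alternative added after the data were seen, the ratio of Gjb2 was 0.83 and that of Gjb6 1.33. Gjb6 within clusters was at least 2-fold higher in Nuc1 in cluster 0 (2.56, 10 and 39 UMIs) and cluster 2 (1.87, 20 and 56 UMIs), and at 0.85 (0.10 to 1.71) in cluster 4.

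**Figure D1:**
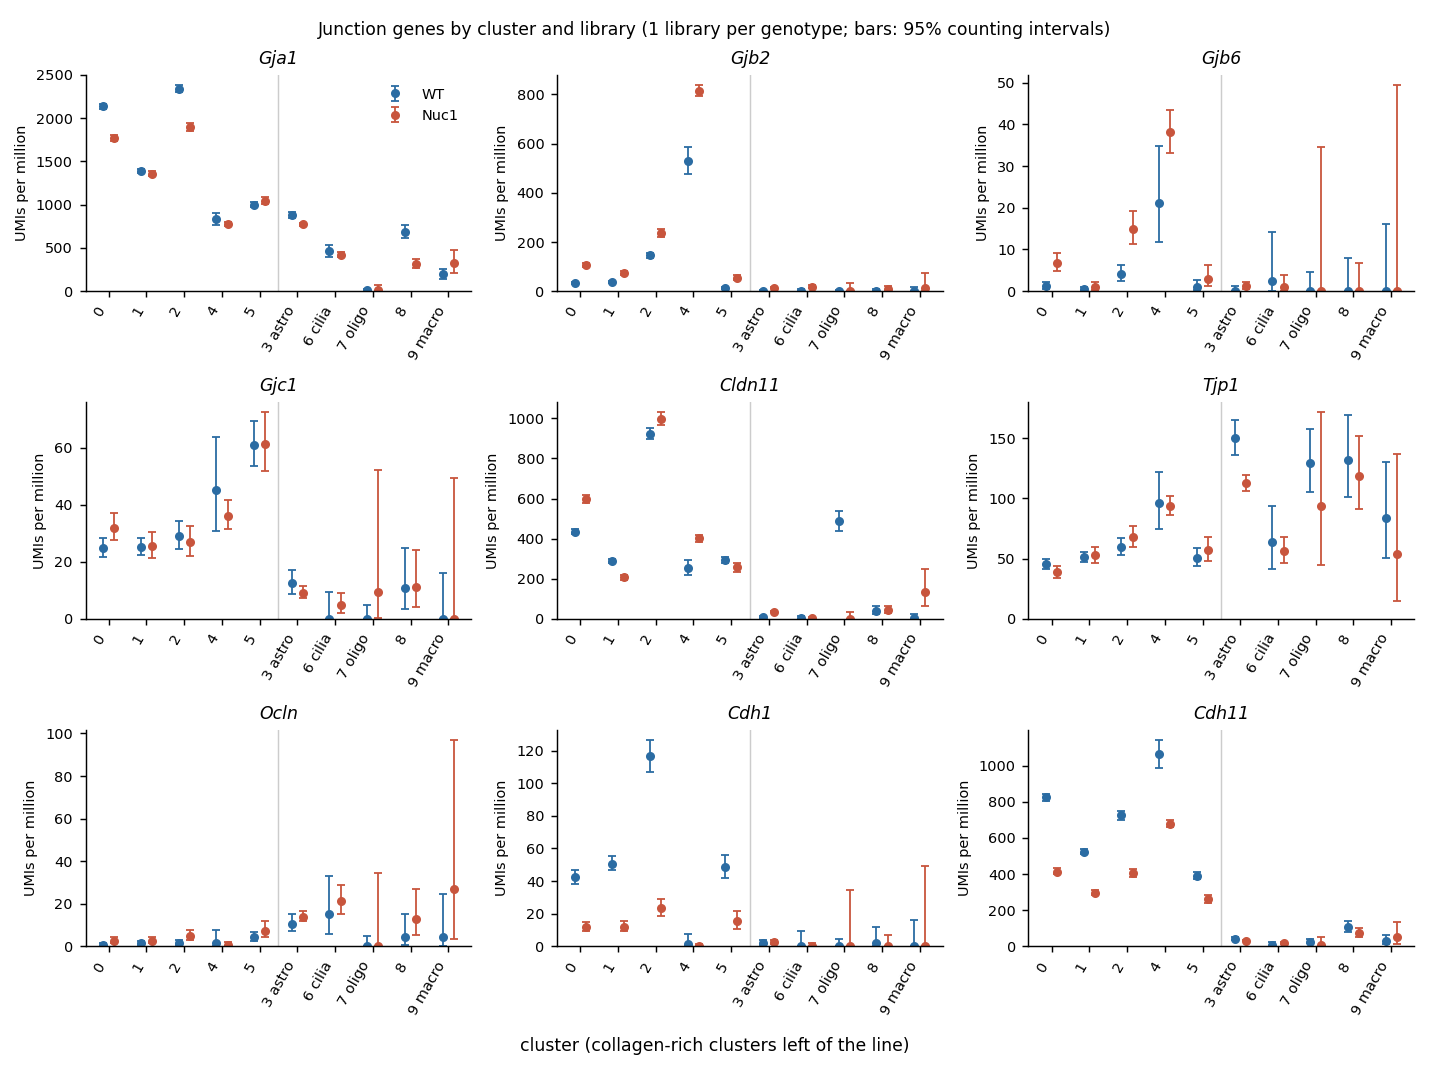
Level of 9 junction genes (CPM, linear axes that start at 0) in each cluster of the WT and the Nuc1 library, with 95% counting intervals as bars. Gjb2 and Gjb6 peak in cluster 4, Cldn11 and Cdh1 in cluster 2, and the WT points of Cdh1 lie above the Nuc1 points in clusters 0, 1, 2 and 5.

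Gja1, the connexin with the most UMIs, was found in most collagen-rich and astrocyte-like cells. It was highest in cluster 2 (2341 CPM in WT and 1898 CPM in Nuc1), followed by cluster 0 (2136 and 1769 CPM), cluster 1 (1385 and 1360 CPM) and the dividing cluster 5 (1001 and 1048 CPM). In cluster 4, where the beta connexins peaked, it was at 834 CPM in WT and 777 CPM in Nuc1, and these intervals overlapped those of the astrocyte-like cells (885 and 775 CPM). Thinned to 5000 UMIs, 81.1% of the Nuc1 cells of cluster 4 had a Gja1 UMI (76.8% to 85%), against 98.4% in cluster 0 (96.6% to 99.4%).

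The log2 ratio of Gja1 was between -0.30 and 0.07 in the 5 collagen-rich clusters. It was at least 2-fold lower in Nuc1 only in the unnamed cluster 8, with 682 CPM in WT (320 UMIs of 22 cells) and 319 CPM in Nuc1 (172 UMIs of 26 cells), a ratio of -1.10 (-1.37 to -0.82), where 5.62% of genes tested were lower by that much. One Nuc1 cell held 28.5% of these UMIs. In the oligodendrocyte lineage Gja1 was nearly absent, at 12 UMIs in WT and 2 in Nuc1.

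Gjc1 (connexin 45) was highest in the dividing cluster 5, at 61.1 CPM in WT (53.6 to 69.3) and 61.4 CPM in Nuc1 (51.7 to 72.3), 3.74-fold and 3.56-fold the mean of the other clusters. The other collagen-rich clusters lay between 24.7 and 45.1 CPM in WT and between 25.5 and 36.2 CPM in Nuc1, and the interval of cluster 5 overlapped that of cluster 4 in WT (30.9 to 63.7) but none in Nuc1. The ratio between libraries there was 0.01 (-0.30 to 0.31).

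Cldn11 had its highest level in cluster 2, with 924 CPM in WT (897 to 951) and 997 CPM in Nuc1 (965 to 1029), 4.60-fold and 5.35-fold the mean of the other clusters. Cluster 0 was next among the collagen-rich clusters, at 435 CPM and 596 CPM. Clusters 1, 4 and 5 lay between 253 and 293 CPM in WT and between 207 and 401 CPM in Nuc1. After thinning, 85% of WT cells and 84.2% of Nuc1 cells of cluster 2 had a Cldn11 UMI, and the intervals (80.3% to 89% and 78.5% to 88.9%) overlapped.

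The log2 ratio of Cldn11 had no common direction over the collagen-rich clusters. It was 0.46 in cluster 0, 0.67 in cluster 4 and 0.11 in cluster 2, but -0.47 in cluster 1 and -0.19 in cluster 5, and none of these reached 2-fold. Gjb2 was found alongside Cldn11 to a varying degree. In WT cluster 1, 16% of the 300 cells with a Cldn11 UMI had a Gjb2 UMI, against 6.1% of the 295 cells without. The corresponding shares in Nuc1 were 42.4% of 85 cells and 12% of 142 cells. The gap was smaller in Nuc1 cluster 0 (29.8% and 22.2%) and cluster 2 (52.3% and 42.4%). In WT these clusters had 10.8% and 3.98%, and 38.6% and 17.1%. Cluster 5 had 8.33% and 1.35% in WT and 45.2% and 8.89% in Nuc1. Cluster 4 had 77.3% and 50% in WT and 88.4% and 72.7% in Nuc1. Cldn11 was found in 67.9% of the 112 cells with Cdh1 and in 46.4% of the 483 without in WT cluster 1, but in 69.4% and 65% in WT cluster 0 and in 69.2% and 69.1% in Nuc1 cluster 0. These cells come from 1 library each and share its RNA, so the shares are a description.

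In the oligodendrocyte lineage, where Cldn11 is a myelin gene, 383 UMIs (487 CPM, 440 to 538) were counted in the 52 WT cells and 0 UMIs in the 10 Nuc1 cells. With 3 counts put in place of the 0, the Nuc1 level was 17.3-fold lower (log2 ratio -4.12). The upper limit of the interval of this log2 ratio was -3.81. The WT value rests on few cells, since 25% of them had a UMI and 1 cell held 43.1% of the UMIs. Cdh11 was the other member counted as lower there. It was at 26.7 CPM in WT (16.5 to 40.8, 21 UMIs) and 9.36 CPM in Nuc1 (0.24 to 52.2, 1 UMI), with overlapping intervals. Genes lower by at least 2-fold made up 11.6% of those tested in this cluster.

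Cldn5 was at 2 UMIs in WT and 4 UMIs in Nuc1 over all cells, too few to give levels by cluster. The 9 endothelial markers measured summed to 161 CPM in WT and 232 CPM in Nuc1 in cluster 4, against 28.6 to 41.6 CPM in the other collagen-rich clusters of either library. Eng (59.3 and 82.7 CPM), Flt1 (36.7 and 66.0 CPM), Cdh5 (31.0 and 37.8 CPM) and Emcn (16.9 and 28.1 CPM) made up most of it, while Kdr was at or below 3.71 CPM in every cluster and Cd34 was at 0 in cluster 4.

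Tjp1 had a broad pattern, with its highest levels outside the collagen-rich clusters. Astrocyte-like cells had 150 CPM in WT (136 to 165, 423 UMIs) and 113 CPM in Nuc1 (106 to 120, 1054 UMIs), and the intervals of cluster 8 (132 and 119 CPM) overlapped both. So did those of the oligodendrocyte-lineage-like cluster 7, at 130 CPM in WT (106 to 157) and 93.6 CPM in Nuc1 (44.9 to 172, 10 UMIs). Among the collagen-rich clusters Tjp1 was highest in cluster 4 (95.9 and 94 CPM) and lowest in cluster 0 (45.3 and 38.7 CPM). The astrocyte-like log2 ratio was -0.41 (-0.57 to -0.24), where the median over all 10657 genes tested was -0.11. Thinned to 5000 UMIs, 60.7% of WT astrocyte-like cells (50.8% to 70%) and 41.5% of Nuc1 cells (36.4% to 46.8%) had a Tjp1 UMI.

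Ocln was sparse and highest in motile-cilia-like cells, at 15.3 CPM in WT (6 UMIs) and 21.4 CPM in Nuc1 (41 UMIs), and in astrocyte-like cells, at 10.6 CPM (30 UMIs) and 14.0 CPM (131 UMIs), with overlapping intervals. In the macrophage-like cluster of Nuc1 it was at 26.8 CPM from 2 UMIs. In the collagen-rich clusters it stayed between 0.79 and 4.34 CPM in WT and between 0.88 and 7.35 CPM in Nuc1. It counted as higher in Nuc1 in cluster 0 (7 and 16 UMIs, log2 ratio 1.79, 0.43 to 3.31) and cluster 2 (8 and 19 UMIs, 1.63, 0.37 to 3.03), both close to the minimum of 20 UMIs.

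Cdh1 set the collagen-rich clusters apart from each other and the libraries from each other. In WT it was at 116 CPM in cluster 2 (107 to 126, 571 UMIs), and clusters 1, 5 and 0 followed at 50.7, 48.8 and 42.4 CPM with overlapping intervals. In Nuc1 it was at 23.4 CPM in cluster 2 (18.8 to 28.8, 88 UMIs) and at 15.6, 12.2 and 11.8 CPM in clusters 5, 1 and 0. Cluster 4 was at 1 UMI in WT and 2 UMIs in Nuc1, so the cluster richest in Gjb2 was nearly without Cdh1.

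The log2 ratio of Cdh1 was -2.32 in cluster 2 (-2.66 to -1.99), -2.06 in cluster 1 (-2.46 to -1.68), -1.84 in cluster 0 (-2.24 to -1.47) and -1.65 in cluster 5 (-2.21 to -1.13), a level 3.14-fold to 4.98-fold lower in Nuc1. Background shares of genes at least 2-fold lower in Nuc1 were 5.29%, 5.87%, 5.96% and 4.29% in those clusters, and of genes at least 2-fold higher 4.06%, 3.41%, 4.03% and 3.16%. Among the members with 20 UMIs, 1 was lower in each, and 2 of 9 were higher in cluster 2, 0 of 8 in cluster 1, 3 of 9 in cluster 0 and 1 of 8 in cluster 5. In cluster 4 none of 7 passed in either direction, where 4.09% of genes were lower and 8.39% higher. Over the collagen-rich clusters pooled, 1 of 9 members was lower and 2 were higher, against 5.05% and 6.91% of all genes.

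The Cdh1 difference was also seen per cell. With each cell thinned to 5000 UMIs, 32.5% of WT cells of cluster 2 had a UMI (27% to 38.4%, 60.1% without thinning) and 8.61% of Nuc1 cells did (5.18% to 13.3%, 22.2% without thinning). In cluster 1 the shares were 18.8% (15.8% to 22.2%) and 4.85% (2.44% to 8.5%), and in cluster 0 they were 16.8% (14% to 19.9%) and 3.43% (1.84% to 5.79%). The intervals overlapped in cluster 5, with 16.4% in WT (10.8% to 23.5%) and 6.58% in Nuc1 (2.17% to 14.7%). For comparison, 2 of 359 Nuc1 astrocyte-like cells had a UMI (0.557%, 0.0675% to 2%), an interval that overlapped that of the Nuc1 cells of cluster 0. No single cell carried the values: the richest WT cell of cluster 2 held 3.85% of its Cdh1 UMIs and the richest Nuc1 cell 15.9%.

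Krt8, a keratin of the epithelial list, was also lower in Nuc1 in the collagen-rich clusters with Cdh1. It was at 504, 365, 425 and 283 CPM in clusters 0, 1, 2 and 5 of WT and at 280, 180, 266 and 143 CPM in Nuc1, and was low in cluster 4 (53.6 and 9.49 CPM). Its order differed, since in WT it was highest in cluster 0, where Cdh1 was lowest of these, at 42.4 CPM. The epithelial list summed to 471 CPM in WT and 544 CPM in Nuc1 in motile-cilia-like cells, which had no Cdh1 UMI. Epcam and Krt19, which define most epithelia, were at 4 and 7 UMIs in WT and 2 and 0 UMIs in Nuc1. The collagen markers were also lower in Nuc1 in each of these clusters, in cluster 2 at 9835 CPM in WT and 5463 CPM in Nuc1. The part of either in the Cdh1 difference was not tested.

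**Figure D2:**
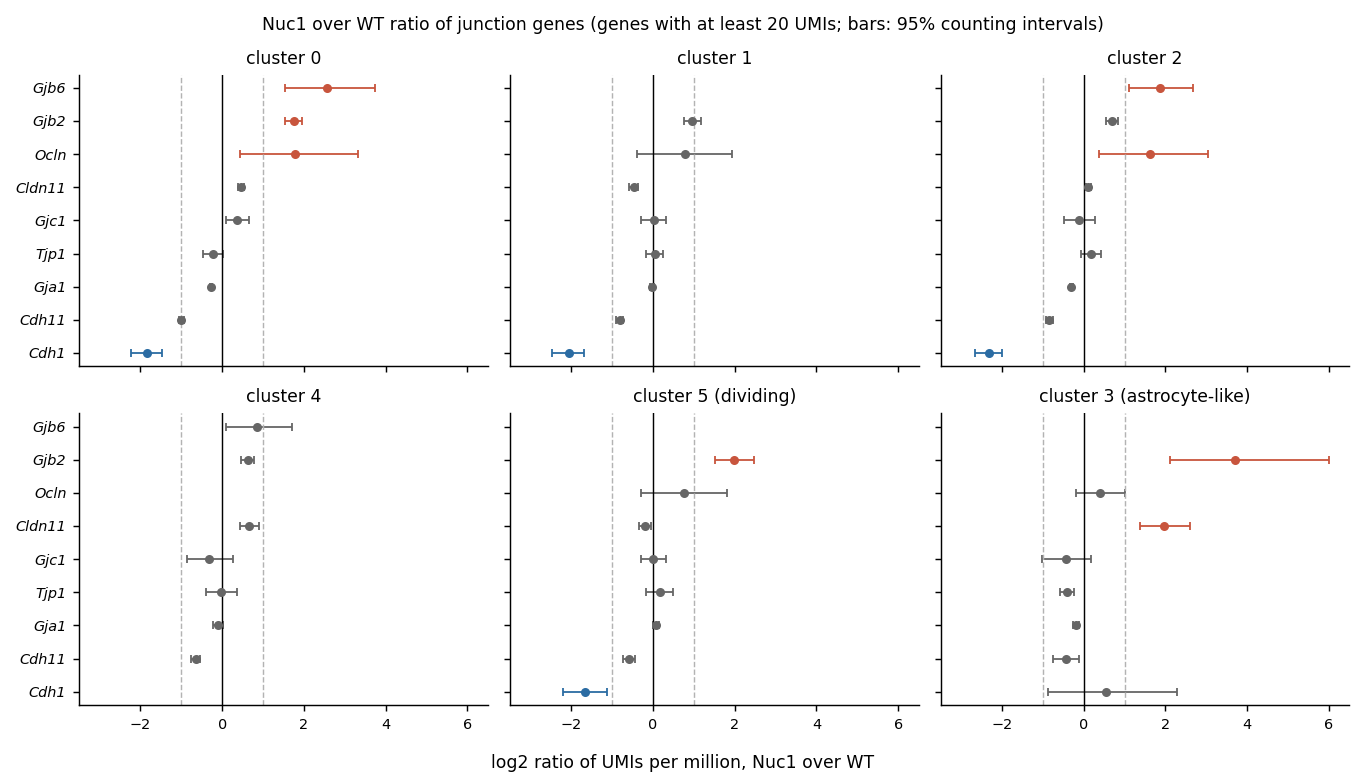
Log2 ratio of Nuc1 over WT for the members with at least 20 UMIs in the 5 collagen-rich clusters and the astrocyte-like cluster, with 95% counting intervals and dashed lines at 2-fold, red and blue marking the genes counted as higher and lower. Cdh1 lies at -1.65 to -2.32 in clusters 0, 1, 2 and 5, and Gjb2 lies right of 0 in each panel.

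**Figure D3:**
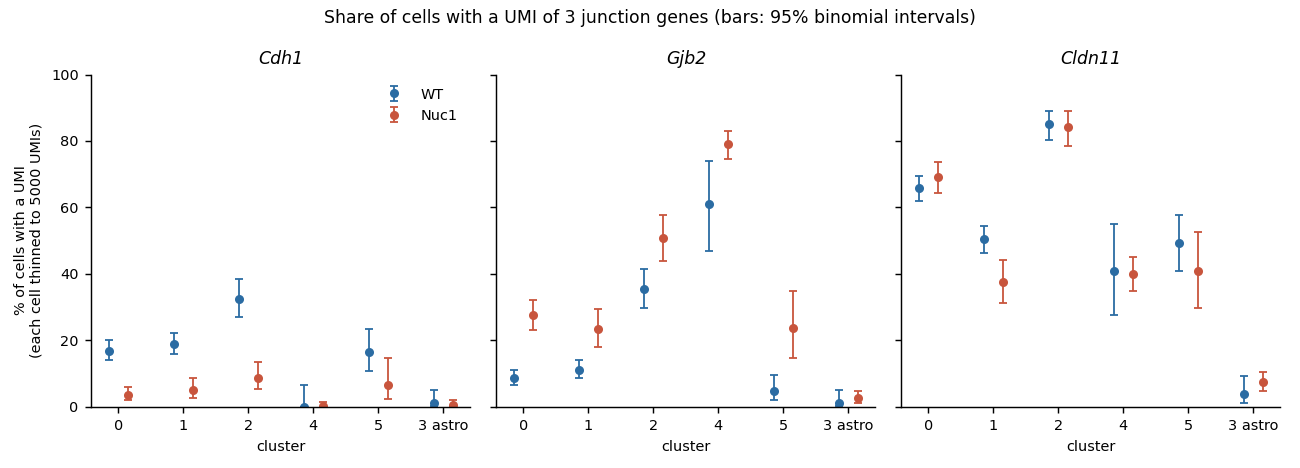
Share of cells with a UMI of Cdh1, Gjb2 or Cldn11 (percent, each cell thinned to 5000 UMIs) in the collagen-rich and astrocyte-like clusters of each library, with 95% binomial intervals. WT lies above Nuc1 for Cdh1 in clusters 0, 1 and 2 with intervals apart, and in cluster 5 with intervals that overlap. For Gjb2, Nuc1 lies above WT in clusters 0, 1, 2, 4 and 5, and the Cldn11 shares of cluster 2 overlap.

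Cdh11 (OB-cadherin) was found throughout the collagen-rich clusters and was highest in cluster 4, at 1062 CPM in WT (988 to 1141) and 679 CPM in Nuc1 (658 to 701). Clusters 0 and 2 followed, at 825 and 725 CPM in WT and 414 and 405 CPM in Nuc1. It was lower in Nuc1 in all 5 clusters by less than 2-fold, with log2 ratios of -0.84 in cluster 2, -0.81 in cluster 1, -0.65 in cluster 4 and -0.59 in cluster 5. In cluster 0 the level was 1.99-fold lower, and the interval of its log2 ratio (-1.06 to -0.93) reached past 2-fold.

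Read by cluster, members were set against the mean of all other clusters, including those not rich in collagen. The collagen-rich clusters had overlapping sets of members at least 2-fold over that mean in both libraries. These were Gja1, Cldn11 and Cdh1 in cluster 2 (3.14% of all genes passed there), Gjb2, Gjb6 and Cdh11 in cluster 4 (5.12%), Gja1 and Cdh11 in cluster 0 (3.32%), Cdh1 in cluster 1 (2.42%), and Gjc1 and Cdh1 in cluster 5 (4.87%). In cluster 0 Cdh1 fell short, at 1.72-fold in WT and 1.97-fold in Nuc1. Ocln passed in the motile-cilia-like cluster (12.7%) and no member did in the astrocyte-like cluster (6.03%) or in clusters 7, 8 and 9 (9.72%, 4.07% and 2.41%). Although known barrier genes met in cluster 2, Dpp4, Slc47a1, Slc6a13 and Abcg2 were low there, as given above.

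In astrocyte-like cells the members separated by where their UMIs lay. Some cells of this cluster carried fibroblast RNA: 17 of 108 WT cells and 62 of 367 Nuc1 cells had over 300 CPM of Col1a1, Col3a1, Dcn and Lum, a limit taken over from an earlier analysis of these data, and these held 18.7% and 21.1% of the UMIs of the cluster. Of the Gjb2 UMIs in Nuc1, 116 of 129 (89.9%, 83.4% to 94.5%) lay in those cells. The corresponding counts were 319 of 335 for Cldn11 (95.2%), 24 of 24 for Cdh1, 10 of 11 for Gjb6 and 227 of 291 for Cdh11 (78%).

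Gja1, Tjp1, Ocln and Gjc1 had most of their UMIs in the other cells. In Nuc1, 21.2% of the Tjp1 UMIs lay in the cells over the limit, at the share of all UMIs, with 29.2% of the Gja1 UMIs (28.1% to 30.2%) above it and 13% of the Ocln UMIs (7.74% to 20%) below it. For Gjc1 it was 29.1%, with an interval (19.8% to 39.9%) that held the share of all UMIs. In the cells up to the limit, Gja1 was at 802 CPM in WT and 696 CPM in Nuc1 and Tjp1 at 150 CPM and 113 CPM. Cdh11 was not absent from them, at 16.6 CPM in WT (38 UMIs) and 8.69 CPM in Nuc1 (64 UMIs), near Gjc1's 24 and 61 UMIs. Gjb6 was not detected in the WT astrocyte-like cells, with 0 UMIs of 108 cells, which allows up to 1.31 CPM.

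Gjb2 and Cldn11 counted as higher in Nuc1 in the astrocyte-like cluster as a whole, 2 of 8 members with 20 UMIs, where 4.53% of genes were higher and 7.08% lower. Gjb2 was at 1.06 CPM in WT (3 UMIs) and 13.8 CPM in Nuc1 (129 UMIs), a log2 ratio of 3.70 (2.12 to 5.99), and Cldn11 at 9.22 CPM (26 UMIs) and 35.9 CPM (335 UMIs), a ratio of 1.96 (1.38 to 2.60). Without the cells over the limit no member counted. Gjb2 was then at 2 UMIs in WT and 13 in Nuc1, a log2 ratio of 1.02 from fewer than 20 UMIs, and Cldn11 at 2.18 and 2.17 CPM.

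**Figure D4:**
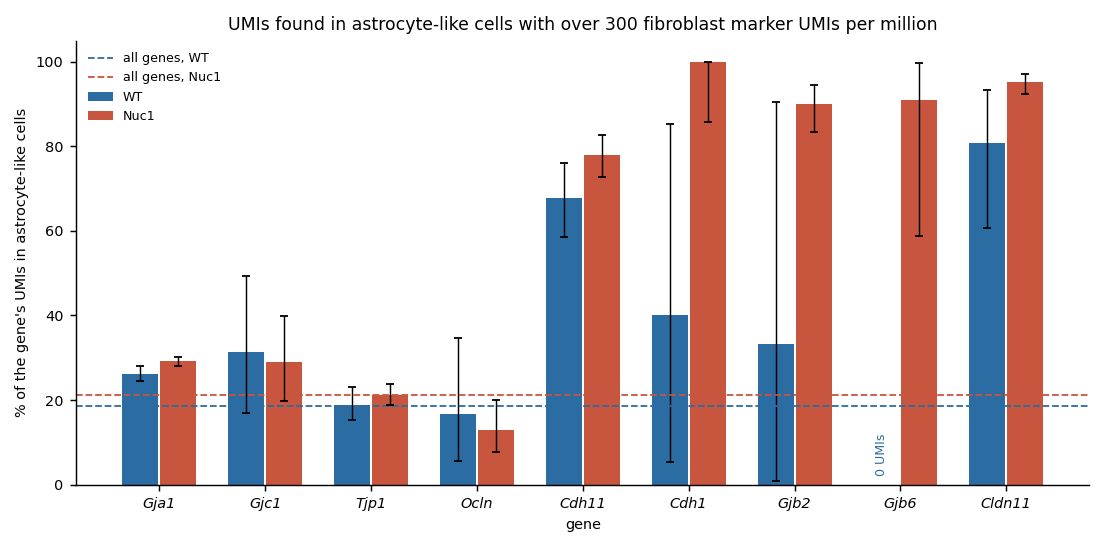
Percent of each member's UMIs in astrocyte-like cells that lay in the cells with over 300 CPM of fibroblast markers, by library (bars), with 95% binomial intervals as thin lines, and dashed lines for the share of all UMIs (18.7% in WT and 21.1% in Nuc1). Gja1, Gjc1, Tjp1 and Ocln lie between 13% and 31.4%, while the Nuc1 bars of Cdh11, Cdh1, Gjb2, Gjb6 and Cldn11 reach 78% to 100%.

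In motile-cilia-like cells Gja1 was at 461 CPM in WT (181 UMIs of 14 cells) and 418 CPM in Nuc1 (801 UMIs of 92 cells), and 78.6% and 81.5% of thinned cells had a UMI. Tjp1 was at 63.6 CPM and 56.4 CPM. Cdh1 was at 0 UMIs in both libraries. Gjb2 was the 1 member of 5 that counted as higher in Nuc1 (7.2% of genes were higher and 5.05% lower), with 0 UMIs in WT and 36 in Nuc1. With 3 counts put in place of the 0, it was 2.46-fold higher (log2 ratio 1.30). The lower limit of the interval, a log2 ratio of 0.93, lay under 2-fold. Of these 36 UMIs, 32 lay in the 5 cells over the fibroblast limit, and 1 cell held 38.9%, without which Gjb2 did not count. The share of Inmt in these cells, 4.71% of its level in cluster 4, would bring 38.4 CPM of Gjb2, above the 18.8 CPM measured.

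In the macrophage-like cluster, whose 22 Nuc1 cells had a median of 1807.5 UMIs, only Gja1 and Tjp1 reached 20 UMIs and neither passed 2-fold (15.4% of genes were higher and 17.3% lower). Cldn11 was at 1 UMI there in WT and 10 in Nuc1. In the oligodendrocyte lineage 0 of 3 members were higher, where 7.87% of genes were, and in cluster 8 none of 4, where 6.88% were. Over all cells, which also carry the shift in cell types, Gjb2, Gjb6 and Ocln were higher and Cdh1 was lower among 9 members, against 10.4% and 6.17% of all genes.

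Of 89 further junction genes listed, 86 were in the matrices, 44 had at least 20 UMIs over all cells and 17 were at 0. Over the pooled collagen-rich clusters 5 of 36 with 20 UMIs were higher in Nuc1 and 5 lower, and in astrocyte-like cells 4 of 31 were higher and 4 lower, beside the background shares given above. In motile-cilia-like cells none of 16 passed. The most counted of them in collagen-rich cells was Ctnna1 (alpha-catenin, which links cadherins to actin), at 234 CPM in WT and 204 CPM in Nuc1, followed by Marveld1 and Jam3. The endothelial cadherin Cdh5 (1.61 and 10.7 CPM), Gja4 (1.37 and 7.31 CPM) and Cdh2 (0.69 and 3.83 CPM) had the highest ratios over these pooled clusters, which carry the shift in makeup. Within cluster 4, which held most of its UMIs over both libraries, Cdh5 was at 31.0 and 37.8 CPM, a log2 ratio of 0.28. Gja4 had ratios of 2.40, 3.06 and 2.38 in clusters 0, 1 and 2. Of the Cdh2 UMIs in collagen-rich cells, most lay in the dividing cluster 5 (2.81 and 22.5 CPM). Cdh13 (4.01 and 1.28 CPM) was lower beside Cdh18 and Pkp1.

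Other adhesion genes differed the way Cdh1 or Gjb2 did in single clusters. Cdh18, a neural cadherin, was at 19.5 CPM in WT and 4.11 CPM in Nuc1 in cluster 0 (log2 ratio -2.25, -2.93 to -1.63), and at 13.2 and 2.75 CPM in cluster 1 (-2.27). Pkp1, a desmosomal plaque protein, was at 25.2 and 10.0 CPM in cluster 1 (-1.33) and at 22.0 and 6.91 CPM in cluster 5 (-1.67). Jam2, a junctional adhesion molecule, was higher in Nuc1, at 17.1 and 76.6 CPM in cluster 0 (2.16, 1.89 to 2.44), 33.4 and 110 CPM in cluster 2 (1.71) and 9.97 and 42.8 CPM in cluster 5 (2.10). In cluster 1 Jam2 was at 8.78 and 19.4 CPM (1.15). Cgnl1 (paracingulin) was lower in cluster 0 (18.3 and 6.5 CPM) and higher in cluster 4 (7.05 and 25.1 CPM). Cdh8 was also lower in cluster 0, at 23.4 and 10.6 CPM (-1.14, -1.58 to -0.73, 269 UMIs). Over all cells, which carry the shift in cell types, Cldn9 (5.11 and 28.6 CPM) and Tjp3 (1.48 and 9.83 CPM) were higher. F11r was lower there (2.42 and 1.04 CPM).

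In astrocyte-like cells Cdh2 (N-cadherin) was the list gene with most UMIs, at 380 CPM in WT and 217 CPM in Nuc1 (log2 ratio -0.80, -0.91 to -0.70). Cldn19, a claudin, was at 33.3 CPM and 13 CPM (-1.36, -1.76 to -0.96) and Nectin1, which pairs with cadherin junctions, at 16.3 and 7.71 CPM (-1.08, -1.64 to -0.52). The other lower genes were Ctnnb1 (-1.38) and Cdh20 (-1.02). These and the 4 higher genes had fewer than 100 UMIs each and were chosen after their values were seen. The higher genes were Cdh13 (2.48 and 7.71 CPM, 1.63), Cgnl1 (5 and 37 UMIs), Cdh8 (4 and 27 UMIs) and Tjp3 (0 and 37 UMIs). In motile-cilia-like cells Jam3 was at 262 CPM in WT and 230 CPM in Nuc1.

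By the correlation of log2(CPM + 20) over the 20 profiles, among 10484 genes with at least 100 UMIs, the pattern of Cdh1 was most like those of Myh1 (Pearson's r = 0.94), Wnt16 (0.94) and Six2 (0.93), and that of Gjb2 most like Islr (0.96), Sned1 (0.96) and Hic1 (0.95). Gjb6 came closest to Col26a1 (0.97), Aox3 and Emcn (both 0.95), Cdh11 to Gpc3, Nid1 (both 0.98) and Emilin1 (0.97), and Cldn11 to Rpia (0.91), Alcam and Igf2bp2 (both 0.90). Gja1 was most like Ahnak (0.95), Adgrl2 (0.94) and Tnks1bp1 (0.93), Gjc1 like Zdhhc15 (0.94), Flrt2 (0.91) and Loxl1 (0.90), Tjp1 like Usp32 (0.90), Tns3 and Tubb2a (both 0.89), and Ocln like Gca (0.90), Plxnc1 and Doc2g (both 0.88). The profiles share 2 libraries, so the correlations are a description.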

How the data were processed

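The deposited count matrices hold UMI counts per gene and cell for 2 libraries (34517542 UMIs in WT and 35794685 in Nuc1), which the authors made with Cell Ranger 3.1.0 and STAR 2.7. The genome build was not given in the sources used here. Barcodes with fewer than 500 genes or over 20% mitochondrial UMIs were removed, and Scrublet (scanpy 1.11.5) removed 5 WT and 11 Nuc1 doublets, fewer than the 2% expected. The libraries were integrated and clustered with Seurat 5.3.0 (1978 genes without the junction genes, 30 components, resolution 0.5), since the authors also integrated them. A cluster was named from at least 3 markers among its 10 leading genes. The collagen limit of 5000 CPM was set after the values were seen. The members, lists and limits were chosen with earlier results of these data known. All members are named, with the 3 genes of most similar pattern. Genes of the wider list were drawn from up to 3 higher and 3 lower genes of at least 100 UMIs in a group and its 3 most counted. Not all of these are named. Ratio intervals were tried on simulated Poisson counts, the model they assume, so that trial cannot show how they hold under variation between cells or libraries. Another 13 settings (TMM from edgeR 4.0.16 among them) and 1 added after the data were seen were tried.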

Additional observations from a re-analysis of the deposited data

Results flagged for a closer look

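Cldn11 was the member whose ratio between the libraries pointed in opposite directions in different cells by at least 2-fold. In astrocyte-like cells the log2 of Nuc1 over WT stood at 1.96 (26 UMIs in WT and 335 in Nuc1). In the oligodendrocyte-lineage-like cluster it was -4.12 with 3 counts put in place of the 0 (383 UMIs in WT and 0 in Nuc1). The difference between these ratios was not tested, because each genotype has 1 library. Among astrocyte-like cells 319 of the 335 Nuc1 UMIs lay in the 62 cells with over 300 CPM of fibroblast markers, and in the oligodendrocyte lineage 1 WT cell held 43.1% of the UMIs and Nuc1 had 10 cells.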

How the results depend on the processing

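No paired analysis was possible because 1 library stands for each genotype, and no library could be left out. Of 86 counts recomputed, 75 stayed within 1.5 times of the reported one, 11 moved further and 0 were reversed. Among 277 other recomputed results, 242 were labelled the same, 33 moved and 2 reversed. Over collagen-rich clusters 2 or 3 members were higher and 1 was lower in every alternative, though with clusters weighted alike the 2 higher members were Gjb6 (1.33) and Ocln (1.04) and no longer Gjb2 (0.83). In astrocyte-like cells 1 member was higher and 1 lower with at most 10% mitochondrial UMIs, and 0 were higher without the cells over 300 CPM of fibroblast markers. The log2 ratio of Cldn11 there turned to -2.09 in the former and -0.0055 in the latter. At 10% mitochondrial UMIs other ratios there also changed sign without reaching 2-fold: Gja1 from -0.19 to 0.91, Ocln from 0.40 to -0.60, Cdh1 from 0.54 to -0.24 and Cdh11 from -0.43 to 0.06. In motile-cilia-like cells 2 members were higher with a minimum of 200 genes or at resolution 1.0, 0 were higher after thinning, without the cells over 300 CPM or without the richest cell, and 1 was lower at resolution 0.2. Without the cells over 300 CPM the motile-cilia-like log2 ratio of Cdh11 went from 0.71 to -3.21, from 4 UMIs in WT and 2 in Nuc1. There the ratio of Gja1 changed from -0.14 to 0.14 when merged without integration, and that of Tjp1 from -0.17 to 0.98 after thinning. No motile-cilia-like cluster formed at 10% mitochondrial UMIs. The class with the highest level was the same in both libraries for 5 members, 8 at 10% mitochondrial UMIs and 9 at resolution 0.2. The ratio of Cdh1 over collagen-rich clusters stayed between -2.51 and -2.04. Depth limits Cldn5, Gjb6 and Ocln most, and the 10 Nuc1 oligodendrocyte-lineage and 14 WT motile-cilia-like cells.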
